A study of Mus musculus with 4 samples.

Results

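The SLC25 family comprises the carriers of the mitochondrial inner membrane, and here it was followed through every probe set that the platform annotation assigns to a single gene whose symbol begins with Slc25a and a digit. That rule took 65 of the 22626 probe sets and 33 of the 12393 genes with a single-gene probe set. Total RNA was measured on 4 Affymetrix arrays of fat cells differentiated in culture from 3T3-F442A, a line of mouse preadipocytes. In the shTRPV4 group (2 arrays) the cells stably expressed a hairpin named for TRPV4, a calcium-permeable cation channel, and in the shGFP group (2 arrays) they expressed the hairpin named for GFP and were labelled control. Cells of both groups had received retrovirus, 2 days of puromycin at 2 ug/ml, then, at confluence, 850 nM insulin for 8 days with rosiglitazone over the first 2 days, so every array carries the hairpin vector, the drug selection and the PPAR gamma agonist. The sources used here do not say whether replicate arrays came from separate infections or cultures, or whether the selected cells were pools, so the replicate spread behind every p-value may be technical.

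Each SLC25 carrier moves a small set of solutes, such as nucleotides, phosphate, carboxylates, amino acids or cofactors, between the cytosol and the mitochondrial matrix, mostly by exchange. The carriers share a fold of repeated helix pairs around a central binding site that opens to either side in turn. In fat cells they link mitochondrial metabolism to fatty acid and glycerol synthesis, to amino acid breakdown and to ATP export. A few members lie elsewhere, for example Slc25a17 in peroxisomes and Slc25a46 in the outer mitochondrial membrane.

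Of the 33 genes, 4 rose and 3 fell in the arrays labelled shTRPV4. The genes that rose were Slc25a29, a carrier of basic amino acids, Slc25a10, the dicarboxylate carrier, Slc25a33, a pyrimidine nucleotide carrier, and Slc25a42, a carrier of coenzyme A. The genes that fell were Slc25a36, the other pyrimidine nucleotide carrier, Slc25a24, a calcium-regulated carrier of ATP-Mg and phosphate, and Slc25a14, a relative of the uncoupling proteins. The increases ran from 0.71 to 1.34 and the decreases from -0.50 to -0.47 as log2 differences, shTRPV4 minus shGFP. The ADP/ATP carriers Slc25a4 and Slc25a5 and the phosphate carrier Slc25a3 did not pass on the probe sets that represent them.

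Differences were taken after quantile normalization of log2(intensity + 16), a scale that shrinks the differences of dim probe sets, and tested with limma over all 22626 probe sets at a Benjamini-Hochberg adjusted p under 0.05. A gene was read on its probe set with the highest mean. In that fit 11.3% of all 12393 genes were called, 5.33% as higher and 6% as lower, against 7 of 33 SLC25 genes (21.2%). The SLC25 genes were brighter, with 25 of 33 above the median level of probe sets, against 6817 of all 12393 genes. With probe sets under the 50th percentile left out, 7 of the 25 SLC25 genes kept were higher and 3 lower. Of all 6818 genes kept there, 1714 were higher and 1370 lower. The larger share of 21.2% is therefore not read as a trait of the family. On the level of probe sets 9.9% of all were called, 4.54% as higher and 5.36% as lower, against 10 of the 65 SLC25 probe sets (15.4%), 6 higher and 4 lower. The median difference was 0.06 over the SLC25 genes and 0.02 over all genes, and the median absolute difference was 0.17 over the SLC25 genes and 0.19 over all genes. With any 1 array left out, each of the 10 called SLC25 probe sets kept its direction. This was all but fixed beforehand, because their groups did not overlap. In these fits the log2 difference ran from 1.32 to 1.37 for Slc25a29 (1438187_at) and from -0.57 to -0.43 for Slc25a14. Such a fit leaves 1 array in a group and 1 residual degree of freedom, so calls are not given for it. With an offset of 1 in place of 16, only the 2 called Slc25a29 probe sets passed among SLC25 probe sets, and calls over all genes fell from 1405 to 387. Levels of different probe sets are not comparable on an array, so a brighter reading does not mean that one carrier is expressed more than another.

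**Figure D1:**
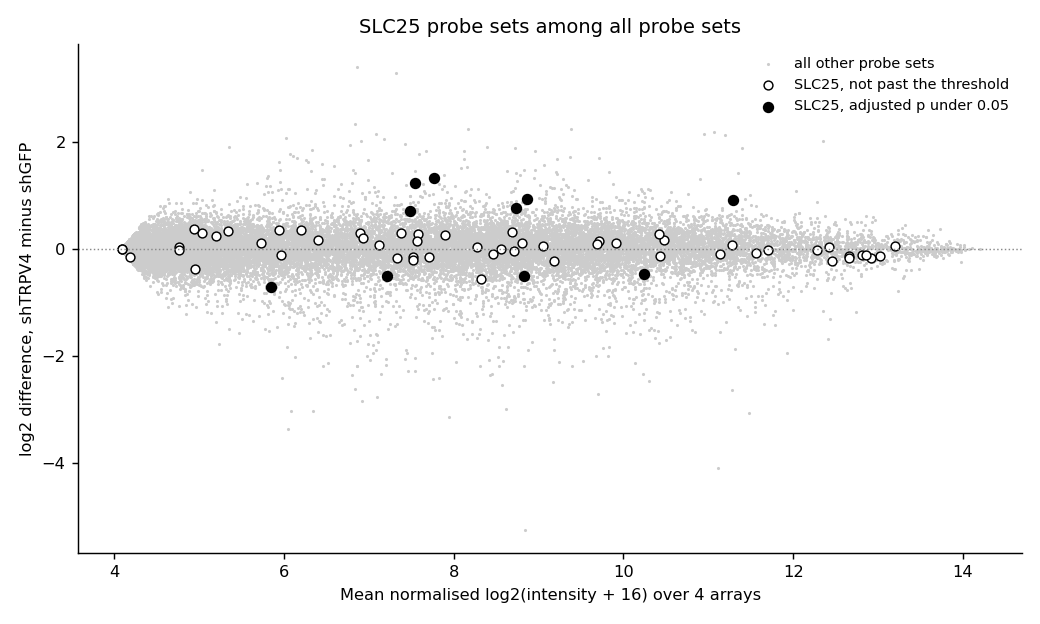
Each point is a probe set, with its mean normalised log2(intensity + 16) over the 4 arrays on the x axis and its log2 difference, shTRPV4 minus shGFP, on the y axis. The 10 called SLC25 probe sets (filled) lie between -0.70 and 1.34 and the 55 uncalled ones (open) between -0.57 and 0.37, among the other probe sets (grey).

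The arrays showed no reduction of the hairpin target. On its single probe set (1417545_at), Trpv4 had intensities of 80.1 and 79.5 in the arrays labelled shTRPV4, against 43.7 and 93.8 in the arrays labelled shGFP. Its log2 difference was 0.32 with a 95% interval from -0.55 to 1.19 (limma adjusted p = 0.55), which does not bear out the label, so groups are called by their labels throughout. Arrays of a label resembled each other most, with Pearson's r over all probe sets of 0.996 within shTRPV4 and 0.995 within shGFP, against 0.985 to 0.987 across labels. Among markers, 4 of 8 adipocyte genes rose and 0 fell, while 7 of 9 preadipocyte and fibroblast genes fell and 0 rose. Over all genes 5.33% rose and 6% fell. The summed deposited intensity of the adipocyte markers was 64589 and 67689 in shTRPV4 arrays, against 57022 and 56125 in shGFP arrays. The brightest adipocyte markers, Fabp4, Lpl and Adipoq, were not called. Fabp4 was the brightest probe set on all 4 arrays, so quantile normalization set its difference to 0. As deposited it read 19142 and 19625 in shTRPV4 arrays, against 18222 and 18099 in shGFP arrays. For the preadipocyte and fibroblast markers the summed intensity was 16307 and 16699 in shTRPV4 arrays, against 30840.4 and 32415 in shGFP arrays. Of 8 macrophage markers 1 rose and 3 fell (50% called, against 11.3% of all genes). Their summed intensities were 671 and 616 in shTRPV4 arrays, against 961 and 1055 in shGFP arrays. Of 6 brown adipocyte markers 1 rose (Cox8b, 1.38) and 0 fell, and Ucp1 differed by 0.01. The leukocyte marker Ptprc read at most 11.25 on the 4 arrays. The cells came from a preadipocyte line, and these readings do not show whether macrophages were present. The part of this marker shift in the SLC25 differences below was not tested. In a culture of mixed cells, fewer cells of a type and less RNA per cell cannot be told apart.

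The starts of the genes that rose, and of those that fell with a single annotated start, are shown so that the promoters of members moving in the same and in opposite directions can be read side by side. The lines give the 250 bases before the RefSeq start on the gene's strand, from the GRCm38.p6 promoter table, in which 26 of the 33 genes were found. Capitals mark matches, on either strand, to 7 motifs: the ERR element TNAAGGTCA, the nuclear receptor half-site AGGTCA, which the ERR element contains, the NRF1 core CGCATGCG, the E-box CACGTG, the cAMP response element TGACGTCA, the CCAAT box CCAAT and the GC box GGGCGG. The windows are at chr12:108835877-108836126, minus strand, for Slc25a29, at chr11:120491587-120491836, plus strand, for Slc25a10, at chr4:149774268-149774517, minus strand, for Slc25a33, and at chr8:70212282-70212531, minus strand, for Slc25a42. The windows of the genes that fell are at chr9:97111042-97111291, minus strand, for Slc25a36, and at chr3:109122899-109123148, plus strand, for Slc25a24.
Slc25a29: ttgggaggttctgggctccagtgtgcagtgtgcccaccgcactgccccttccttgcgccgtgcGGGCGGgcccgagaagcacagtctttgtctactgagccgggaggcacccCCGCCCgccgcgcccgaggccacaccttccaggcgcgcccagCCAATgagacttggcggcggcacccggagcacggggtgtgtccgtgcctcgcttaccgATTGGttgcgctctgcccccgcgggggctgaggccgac
Slc25a10: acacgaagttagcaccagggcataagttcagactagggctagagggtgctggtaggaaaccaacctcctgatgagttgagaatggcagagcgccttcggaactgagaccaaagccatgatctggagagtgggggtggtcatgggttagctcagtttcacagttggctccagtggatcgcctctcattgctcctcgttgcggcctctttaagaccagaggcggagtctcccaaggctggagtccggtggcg
Slc25a33: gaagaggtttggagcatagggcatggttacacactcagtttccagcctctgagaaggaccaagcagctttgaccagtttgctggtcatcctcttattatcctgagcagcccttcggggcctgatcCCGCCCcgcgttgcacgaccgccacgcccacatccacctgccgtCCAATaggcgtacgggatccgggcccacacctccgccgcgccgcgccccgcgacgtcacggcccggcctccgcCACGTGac
Slc25a42: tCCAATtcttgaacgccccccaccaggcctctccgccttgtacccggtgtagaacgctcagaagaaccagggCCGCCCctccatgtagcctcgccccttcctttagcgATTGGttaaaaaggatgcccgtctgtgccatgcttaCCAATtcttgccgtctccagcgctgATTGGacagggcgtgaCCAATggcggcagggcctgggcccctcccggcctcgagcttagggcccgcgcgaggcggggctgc
Slc25a36: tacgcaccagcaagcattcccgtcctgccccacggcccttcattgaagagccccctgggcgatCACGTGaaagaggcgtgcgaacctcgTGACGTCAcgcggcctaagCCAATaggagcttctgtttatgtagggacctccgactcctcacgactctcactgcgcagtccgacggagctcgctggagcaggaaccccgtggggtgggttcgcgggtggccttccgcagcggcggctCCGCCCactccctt
Slc25a24: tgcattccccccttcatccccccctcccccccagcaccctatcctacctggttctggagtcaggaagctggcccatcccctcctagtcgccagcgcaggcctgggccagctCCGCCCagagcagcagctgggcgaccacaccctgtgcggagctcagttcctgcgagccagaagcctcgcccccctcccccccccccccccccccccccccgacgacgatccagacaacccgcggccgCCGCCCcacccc

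The 4 genes that rose did not share a motif. The Slc25a10 window held none of the 7, while those of Slc25a29, Slc25a33 and Slc25a42 each held the CCAAT box, found in 33.8% of all 32851 windows of this length, and the GC box, found in 32.7%. The boxes were not limited to the genes that rose. Slc25a36, which fell, held both, and Slc25a24 and Slc25a14, which also fell, held the GC box. Of the 26 genes, which have 35 windows, 15 held the CCAAT box and 21 the GC box in any window. These counts of genes do not compare directly with the shares of single windows. Slc25a42 had 5 CCAAT boxes. The E-box, in 6.02% of all windows, was in the windows of Slc25a33, which rose, of Slc25a36, which fell, and of 2 of the 3 overlapping windows of Slc25a14, which fell, and in those of the uncalled Slc25a13 and Slc25a15. The cAMP response element, in 1.55% of all windows, was in that of Slc25a36, and among the 26 genes also in that of Slc25a25. The ERR element (1.14% of all windows) and the NRF1 core (1.55%) had no match in the windows of the 26 genes, and the half-site (14% of all windows) matched only in those of Slc25a39, Slc25a45 and Slc25a47, none of them called. This says only that these letters are not in the other windows. The GC share ran from 56% (Slc25a10) to 72.8% (Slc25a24) in the printed windows. The median was 57.2% over the windows of the 26 genes and 52.4% over all windows.

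Slc25a10, the dicarboxylate carrier, exchanges malate and succinate for phosphate, and it is abundant in white fat. On the brighter probe set (1416954_at) its intensity was 3385 and 3474 in shTRPV4, against 1956 and 1707 in shGFP. Both shTRPV4 arrays were above both shGFP arrays, and the fold was 1.89 (log2 difference 0.92, SE 0.11, 95% interval 0.61 to 1.22, limma adjusted p = 0.029). The second probe set (1416955_at) read 601 and 635 in shTRPV4, against 354 and 299 in shGFP, and also rose (0.95, SE 0.13, adjusted p = 0.035). The other carboxylate carrier measured, the oxoglutarate/malate carrier Slc25a11, read 1449 and 1520.3 in shTRPV4, against 1319 and 1365 in shGFP. It did not pass (0.17, 95% interval -0.00 to 0.34, adjusted p = 0.17).

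**Figure D2:**
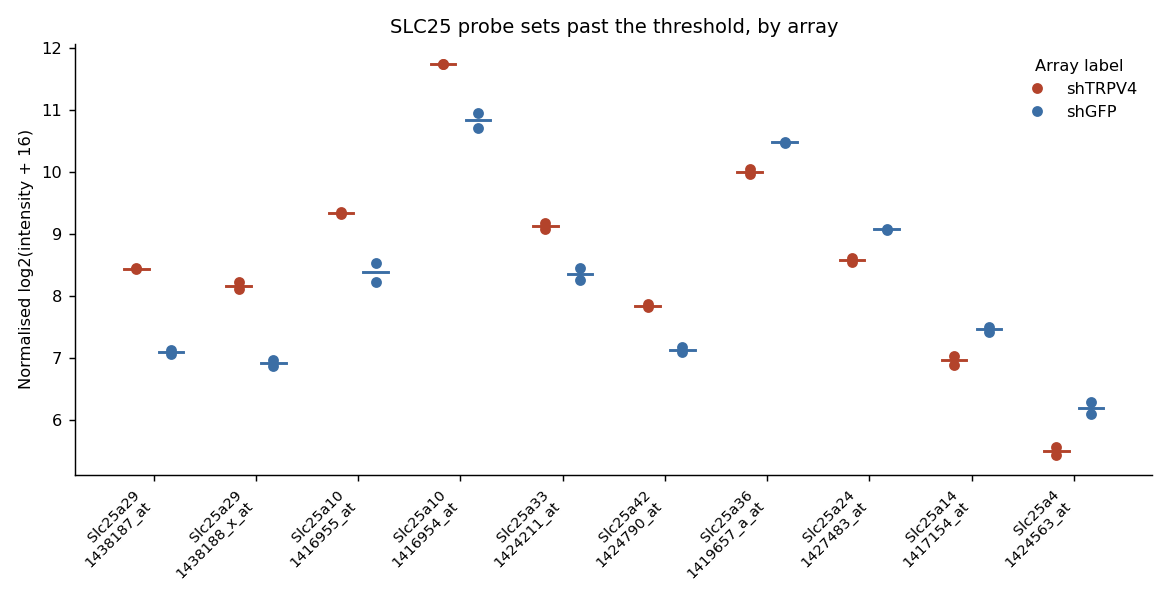
Normalised log2(intensity + 16) of the 10 SLC25 probe sets past the threshold, with a point for each array, a bar for the mean of 2 arrays, and shTRPV4 (red) left of shGFP (blue). The groups do not overlap in any of the 10, and the shGFP points of both Slc25a10 probe sets lie farther apart than the shTRPV4 points.

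Among the 7 amino acid carriers 1 rose and 0 fell (14.3% called, against 11.3% of all genes), and 6 had a positive difference (85.7%, against 53.5% of all genes). The gene that rose, Slc25a29, carries arginine, lysine and other basic amino acids. On its representative probe set (1438187_at) it read 321 and 326 in shTRPV4, against 119.8 and 131 in shGFP, a 2.53-fold difference (log2 1.34, SE 0.07, 95% interval 1.15 to 1.52, limma adjusted p = 0.015). A second probe set (1438188_x_at) read 273 and 256 in shTRPV4, against 110.5 and 106 in shGFP, and rose by 1.25 (adjusted p = 0.017), though its _x_at suffix marks probes that can bind related transcripts. The 3 further Slc25a29 probe sets did not pass.

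These were dimmer. The probe set 1423980_at read 48.2 and 56.45 in shTRPV4, against 39.1 and 39.1 in shGFP (Slc25a29, log2 difference 0.36, adjusted p = 0.0975), and 1423979_a_at read 58.5 and 73.25 in shTRPV4, against 58.8 and 42.7 in shGFP (0.36, adjusted p = 0.27). The fifth (1423981_x_at) was deposited as exactly 1 on all 4 arrays, where no difference can be measured. With the 5 averaged the Slc25a29 difference was 0.66 (SE 0.07, adjusted p = 0.018). The size of the Slc25a29 increase therefore depends on the probe set, whereas all 4 that carry a signal had positive differences.

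Several other amino acid carriers were slightly higher without passing. Slc25a44, a carrier of branched-chain amino acids, read 420.0 and 454 in shTRPV4, against 358 and 360.5 in shGFP (0.33, SE 0.07, adjusted p = 0.070). The groups did not overlap, and its 2 dimmer probe sets differed by 0.26 and 0.11. Slc25a22, a glutamate carrier, read 169 and 160.5 in shTRPV4, against 142 and 135 in shGFP (0.31, SE 0.09, adjusted p = 0.11). The ornithine carrier Slc25a15 read 519 and 514 in shTRPV4, against 531 and 494 in shGFP (0.06, 95% interval -0.20 to 0.31, adjusted p = 0.73), and its groups overlapped. The glycine carrier Slc25a38 (0.21) and the second ornithine carrier Slc25a2 (0.25) did not pass, nor did Slc25a13, a calcium-regulated aspartate/glutamate carrier and the only one of the 7 with a negative difference (-0.16).

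The pyrimidine nucleotide carriers Slc25a33 and Slc25a36, which supply nucleotides for mitochondrial DNA and RNA, differed in opposite directions. Slc25a33 (1424211_at) read 543 and 522 in shTRPV4, against 330.3 and 303 in shGFP, and rose 1.71-fold (log2 0.77, SE 0.10, 95% interval 0.49 to 1.05, limma adjusted p = 0.033). Slc25a36 (1419657_a_at) read 1017 and 996 in shTRPV4, against 1389 and 1460.2 in shGFP, and fell by 0.47 (SE 0.07, 95% interval -0.67 to -0.28, limma adjusted p = 0.039). Neither pair of groups overlapped. The dimmer Slc25a36 probe set (1419656_at) read 152 and 150.7 in shTRPV4, against 184 and 186 in shGFP, lower but not past the threshold (-0.20, adjusted p = 0.16). With both averaged, Slc25a36 still fell (-0.33, adjusted p = 0.049).

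Slc25a42, which brings coenzyme A into mitochondria in exchange for adenine nucleotides, rose 1.63-fold. Its probe set (1424790_at) read 199 and 216 in shTRPV4, against 132 and 127 in shGFP (log2 0.71, SE 0.07, 95% interval 0.51 to 0.91, limma adjusted p = 0.024). The other cofactor and acyl carriers did not pass. The carnitine/acylcarnitine carrier Slc25a20, through which long-chain fatty acids enter oxidation, read 835 and 884 in shTRPV4, against 827 and 737 in shGFP (0.16, 95% interval -0.14 to 0.46, adjusted p = 0.39). The S-adenosylmethionine carrier Slc25a26 differed by 0.30 (adjusted p = 0.22). The NAD carrier Slc25a51 differed by -0.09 on the brightest of its 3 probe sets (95% interval -0.29 to 0.11, adjusted p = 0.49). The peroxisomal carrier Slc25a17 differed by -0.22 on its brighter probe set and by 0.37 on the dim one, which read 17.5 and 19.7 in shTRPV4, against 8.43 and 13.95 in shGFP, and neither passed. With Slc25a33 and Slc25a36 these carriers made 7 genes, of which 2 rose, 1 fell and 4 were not called (42.9% called, against 11.3% of all genes).

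**Figure D3:**
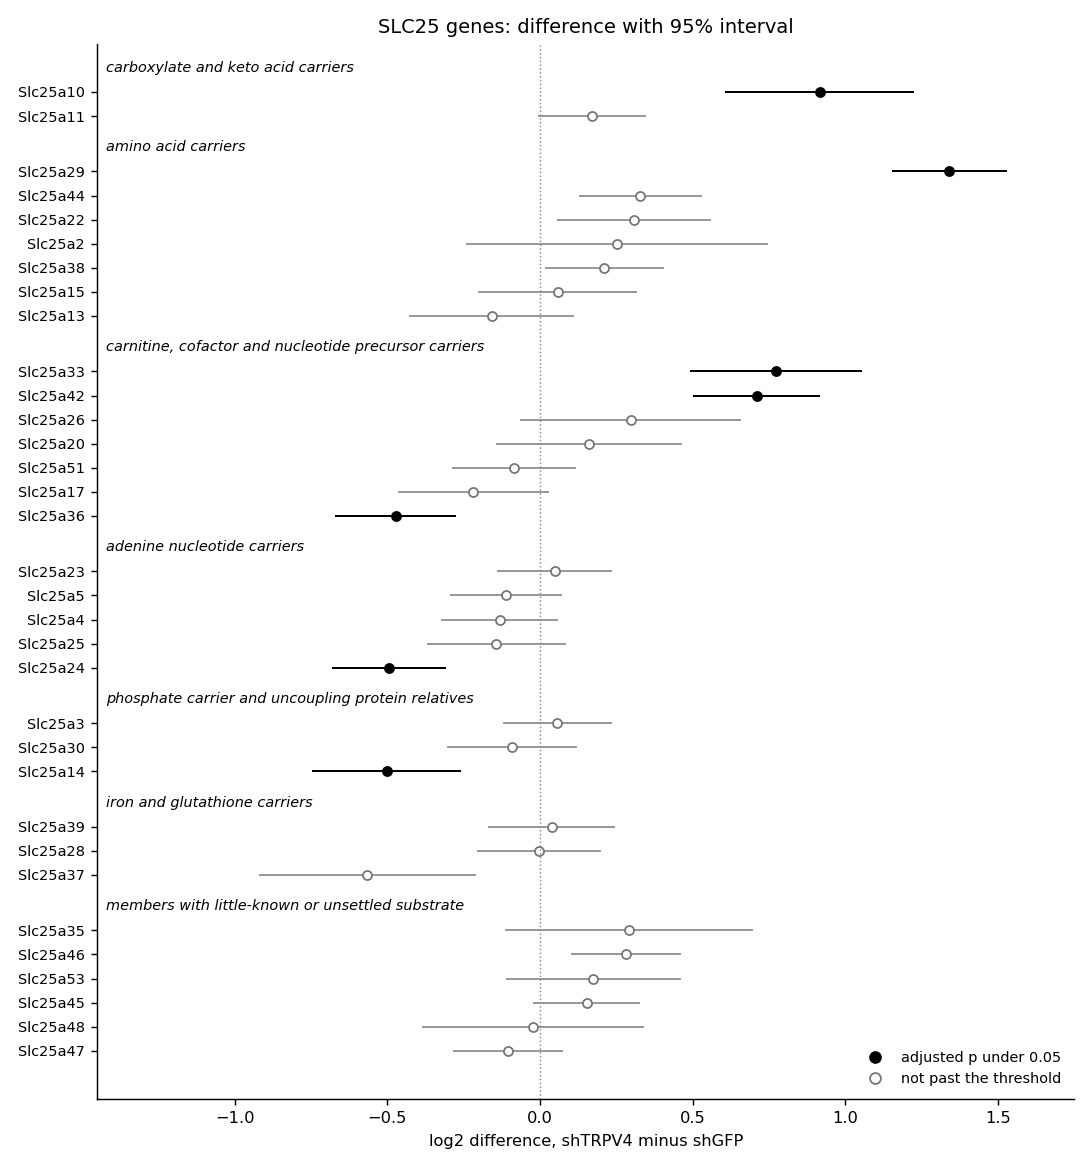
Log2 difference, shTRPV4 minus shGFP (x axis), of each of the 33 SLC25 genes on its representative probe set, grouped by the solute carried, with the 95% interval of the limma fit as a line. The 7 filled points passed the threshold, Slc25a29 lies highest at 1.34, and the uncalled Slc25a37 lies lowest at -0.57 with a wide interval.

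Of the 5 adenine nucleotide carriers 1 fell and 0 rose (20% called, against 11.3% of all genes). The difference was negative for 4 of them, against 5722 of all 12393 genes, and for Slc25a4 and Slc25a5 its sign depended on the scaling. Slc25a24 binds calcium and adjusts the adenine nucleotide content of the matrix. Its probe set (1427483_at) read 362 and 354 in shTRPV4, against 522 and 543 in shGFP, and fell 1.41-fold (log2 -0.49, SE 0.07, 95% interval -0.68 to -0.31, limma adjusted p = 0.034). Its relatives did not pass. Slc25a25 read 167 and 193 in shTRPV4, against 199.8 and 219 in shGFP (-0.14, adjusted p = 0.32), and Slc25a23 read 11.8 and 11.3 in shTRPV4, against 11.3 and 10.3 in shGFP, below the offset of 16 on all 4 arrays. Together with Slc25a13, the calcium-binding carriers, a set chosen after their values were seen, held 1 called gene of 4 (25%, against 11.3%).

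The ADP/ATP carriers export the ATP made by oxidative phosphorylation. Slc25a4, on its representative probe set (1424562_a_at), read 7791 and 8345 in shTRPV4, against 8483 and 8547 in shGFP (-0.13, 95% interval -0.32 to 0.05, limma adjusted p = 0.28). The 2 other bright Slc25a4 probe sets differed by -0.13 and -0.16, whereas the fourth (1424563_at), at 30.6 and 26.3 in shTRPV4, against 53.4 and 65.4 in shGFP, fell by 0.70 (SE 0.10, adjusted p = 0.040). Averaged over the 4, Slc25a4 did not pass (-0.28, adjusted p = 0.059). The 8 probe sets of Slc25a5 all had negative differences, from -0.23 to -0.01. Most of them are of the _x_at kind, 1 had an unadjusted p under 0.05, and none passed with limma (representative 1436874_x_at -0.11, 95% interval -0.29 to 0.07, adjusted p = 0.33). With each array centred on its median, the representative probe sets of Slc25a4 and Slc25a5 changed sign, to 0.02 and 0.05, so no direction is given for them.

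**Figure D4:**
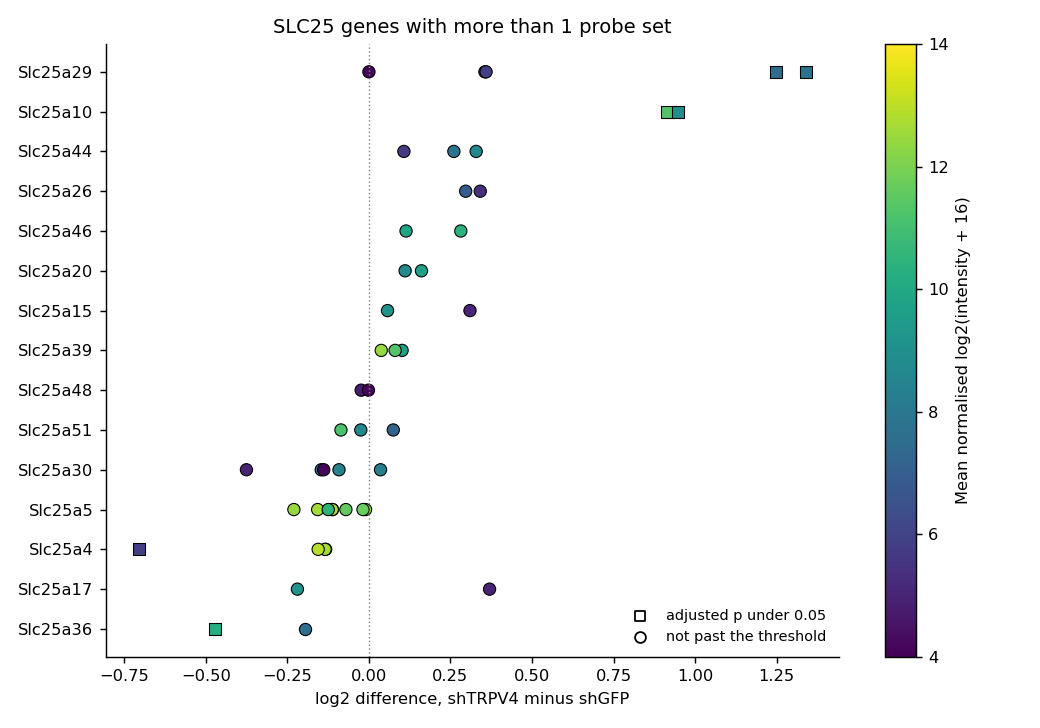
Log2 difference, shTRPV4 minus shGFP (x axis), of every probe set of the 15 SLC25 genes with more than 1, with squares for those past the threshold and colour for the mean normalised log2(intensity + 16). Both Slc25a10 squares lie together near 0.9, the Slc25a29 probe sets spread from 0 to 1.34, and the called Slc25a4 probe set at -0.70 stands apart from 3 brighter ones near -0.1.

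The phosphate carrier Slc25a3 supplies the phosphate for ATP synthesis. It read 9516 and 9998 in shTRPV4, against 8758 and 9298 in shGFP (0.06, 95% interval -0.12 to 0.23, limma adjusted p = 0.61). Slc25a14, known as a brain-enriched relative of the uncoupling proteins, read 97.5 and 112 in shTRPV4, against 164.9 and 164 in shGFP. It fell 1.42-fold (log2 -0.50, SE 0.08, 95% interval -0.74 to -0.26, adjusted p = 0.049), the called gene nearest to the threshold, and the call was lost with limma's robust variance prior (adjusted p = 0.056). Slc25a30, another such relative, had 5 probe sets with differences from -0.38 to 0.04, none past the threshold or at an unadjusted p under 0.05.

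Of the 3 iron and glutathione carriers none passed at the adjusted threshold, and 1 had an unadjusted p under 0.05. That gene, Slc25a37 or mitoferrin, which imports iron for heme and iron-sulfur clusters, read 252 and 231 in shTRPV4, against 339.8 and 429 in shGFP. The groups did not overlap, but the shGFP arrays lay far apart (log2 difference -0.57, SE 0.12, 95% interval -0.92 to -0.21, limma adjusted p = 0.074). It passed as lower with an offset of 64, with either filter on dim probe sets and with an intensity trend in the variance prior. Its relative Slc25a28 read 339 and 368 in shTRPV4, against 369 and 374 in shGFP (-0.00, 95% interval -0.20 to 0.20). Slc25a39, which transports glutathione, read 5388 and 5917 in shTRPV4, against 5183 and 5508 in shGFP (0.04, 95% interval -0.17 to 0.24, adjusted p = 0.77).

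None of the 6 members with a little-known or unsettled substrate passed with limma, and 1 had an unadjusted p under 0.05. That was Slc25a46, an outer membrane protein of mitochondrial fission and lipid transfer, which read 1434 and 1514 in shTRPV4, against 1233 and 1239.5 in shGFP (0.28, SE 0.06, limma adjusted p = 0.076). Its dimmer probe set differed by 0.11 (adjusted p = 0.40). Slc25a35 differed by 0.29 (adjusted p = 0.27), Slc25a53 by 0.17, Slc25a45 by 0.15, Slc25a48 by -0.02 and Slc25a47 by -0.11. Slc25a47 lies next to Slc25a29 in the GRCm38.p6 gene order, and it read 44.2 and 41.8 in shTRPV4, against 50.01 and 50.07 in shGFP.

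The array groups did not overlap for many members, which is common in these data. Of the 33 genes, 16 were higher in both shTRPV4 arrays than in both shGFP arrays, against 33.2% of all genes. A further 12 were lower in both, against 27.7% of all genes. The groups overlapped for 5 of the 33, a smaller share than the 4849 of all 12393 genes. Of the 65 probe sets, 26 were higher in both shTRPV4 arrays (against 31.3% of all probe sets) and 21 lower (against 27.2%). The groups overlapped for 18 of the 65, against 9399 of all 22626. Over the 65 probe sets the median absolute log2 difference between arrays of a group was 0.07 in shTRPV4 and 0.08 in shGFP, and between the groups it was 0.16. Over all probe sets these values were 0.10 in shTRPV4, 0.12 in shGFP and 0.18 between the groups.

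Mitochondrial transport genes without an Slc25a symbol were read for comparison from a list of 35, of which 24 are analysed here. The list was drawn by symbol and includes Ucp1, Ucp3, Mtch1 and Mtch2, members of the same carrier family, so it does not lie wholly outside the family. Of the 24, 4 rose, 1 fell and 19 did not pass (20.8% called, against 11.3% of all genes), with a median of 0.21, against 0.02 over all genes. Ucp3, an uncoupling protein that belongs to the same carrier family under another symbol, read 167 and 167 in shTRPV4, against 56.2 and 54.6 in shGFP on its brighter probe set (1.42, SE 0.07, limma adjusted p = 0.015). Its dimmer probe set did not pass (0.52, adjusted p = 0.073). The sideroflexin Sfxn4 (0.58, adjusted p = 0.026), Letmd1 (0.48, adjusted p = 0.046) and the mitochondrial sodium/calcium exchanger Slc8b1 (0.37, adjusted p = 0.0496) also rose. The gene that fell was Cpt1a, the outer membrane carnitine palmitoyltransferase that feeds Slc25a20, with 421 and 454 in shTRPV4, against 891 and 860.4 in shGFP (-0.93, SE 0.08, adjusted p = 0.020). Of its 2 further probe sets, 1438156_x_at fell by 0.77 and 1434866_x_at did not pass (-0.36, adjusted p = 0.061). With the values as deposited the count for this list was 2 higher and 1 lower, and with median centring 7 higher and 1 lower. The SLC25 count was 4 higher and 3 lower under both, although over all genes the split was 661 higher and 744 lower after quantile normalization, 380 and 718 as deposited, and 1036 and 709 with median centring.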

How the data were processed

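RNA of 2 shTRPV4 and 2 shGFP samples was measured on 1-colour Affymetrix arrays. The deposited values are 1 linear intensity per probe set and array, per the table of the submitters. How they were summarised, background-corrected and scaled is not given in the sources used here. Detection calls and scanner files were not part of the analysis. Array medians were 129.4 and 132.8 (shTRPV4), and 138.6 and 144.0 (shGFP), and the number of arrays limits the precision. Values were taken as log2(intensity + 16), quantile normalized and fitted in R 4.3.3 with limma 3.58.1 (lmFit, then eBayes without trend, 2 residual and 1.8 prior degrees of freedom, two-sided, Benjamini-Hochberg adjustment over 22626 probe sets). The fit was tested on simulated data. Genes came from the platform annotation (20380 probe sets with 1 symbol, 691 with several, 1555 unnamed here), and all 33 SLC25 genes matched RefSeq by gene ID.

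The family, the lists and the alternatives were chosen with earlier results of these data known. Named were all SLC25 genes with a called probe set, the 5 brightest, the 6 uncalled with the largest differences at or above the 25th percentile of level, the 4 uncalled with the smallest adjusted p, the brightest of each role group, genes whose probe sets disagree in sign with 1 called, Trpv4, and called genes of the transport list. Other members are given by value to account for the whole family. Alternatives were other scaling, offsets, filters on dim probe sets, probe set rules, variance priors, the replicate number as a block, and leaving out each array.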

Additional observations from a re-analysis of the deposited data

How the results depend on the processing

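All 7 called SLC25 genes kept their call and direction with the values as deposited and with median centring, and none of the 22 named probe sets reversed a call under any alternative run. An offset of 1 left 2 called SLC25 probe sets (both of Slc25a29), 1 gene higher and 0 lower, with limma (8 and 4 at an unadjusted p under 0.05). Over all 12393 genes that offset left 387 called, against 1405 in the main fit. More SLC25 genes were higher with an intensity trend in the variance prior (7 of 33) and with probe sets under the 50th percentile left out (7 of the 25 kept). Slc25a44 and Slc25a46 were among them. Higher calls over all genes also grew, from 661 in the main fit to 1408 with the trend and 1714 of the 6818 genes kept by that filter. The lower SLC25 genes numbered 4 with the trend, with an offset of 64 and without probe sets under the 25th percentile (of 30 kept), where Slc25a37 was also called. Lower calls over all genes were 744 in the main fit, 1236 with the trend and 1222 with an offset of 64. Without probe sets under the 25th percentile they were 1189 of 9633. Other mitochondrial transport genes called numbered 3 as deposited, 8 with median centring, 2 with an offset of 1 and 10 with an offset of 64, and 9 and 11 without probe sets under the 25th or 50th percentile. They numbered 11 with the trend and 3 with the robust prior. Calls over all genes moved too, from 387 of 12393 with an offset of 1 to 3084 of 6818 without probe sets under the 50th percentile. With the replicate block limma called 0 of all 12393 genes, with 1 residual degree of freedom. The counts were 0 for SLC25 probe sets, SLC25 genes higher, SLC25 genes lower and the other list (18, 8, 4 and 11 at an unadjusted p under 0.05). The replicate numbers are not stated to pair the arrays, and the deviations of same-numbered arrays correlated at 0.12. Leaving out each array kept the sign of the called SLC25 probe sets, which was all but fixed beforehand because their groups did not overlap. The difference then ran from 0.80 to 1.04 for Slc25a10 (1416954_at) and from -0.51 to -0.43 for Slc25a36 (1419657_a_at). The unknown background level limits dim probe sets such as those of Slc25a23, Slc25a48 and Slc25a2.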

Other observations

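The genes next to the 7 called SLC25 genes in the GRCm38.p6 gene order were read as well, a look chosen after the values were seen. Of the 28 nearest protein-coding neighbours, 2 on each side, 22 were measured and 2 were called, both beside Slc25a33, a share below the 11.3% of all genes called. H6pd, which makes NADPH in the endoplasmic reticulum, read 1417 and 1523 in shTRPV4, against 881 and 901 in shGFP (log2 difference 0.75, SE 0.07, limma adjusted p = 0.020). Spsb1, which lies between Slc25a33 and H6pd, read 169 and 181 in shTRPV4, against 249 and 264 in shGFP, and fell by 0.45 (SE 0.06, adjusted p = 0.037). Mrpl12, a mitochondrial ribosomal protein gene next to Slc25a10, read 1823 and 1942 in shTRPV4, against 1623 and 1536 in shGFP, and did not pass (0.28, adjusted p = 0.11).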
